A study of Mus musculus with 6 samples.

Results

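The sodium-calcium exchanger genes of mouse were examined in ATAC-seq data from skin epidermis. ATAC-seq marks open chromatin by the cuts of a transposase. The genes are the 5 members of the Slc24a family (Slc24a1 to Slc24a5) and the 3 of the Slc8a family (Slc8a1 to Slc8a3). Their regions were chosen from merged peaks. Peaks of the 6 libraries that overlapped were joined into 75738 consensus regions, and a region belonged to a member when that gene's span was the nearest protein-coding span within 50 kb. This gave 57 regions, at 6 of the 8 genes, of which 36 lay at Slc24a3. No region was as near to another gene span as to a member. The genes were singled out because Slc24a3 had stood out in these same peak lists, so the counts of regions that follow are a description and no test was made on them.

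All mice were of genotype TNC-CREER; tdTomato on a C57BL/6 background. Tamoxifen was given on postnatal days 51 and 52, each time at 100 µg for every g of weight, and skin was taken on day 60. The Cre is active where the tenascin-C gene Tnc drives it, so tdTomato marks cells with a history of Tnc expression, and the unmarked groups carried the same alleles and had the same tamoxifen. The 3 populations, with 2 libraries of 50000 sorted back-skin cells each, all passed a gate for EPCAM and α6-integrin. Touch dome cells, keratinocytes of the sensory patches that house Merkel cells, were SCA1 and tdTomato positive. Interfollicular epidermis (IFE) cells were SCA1 positive and tdTomato negative, and hair follicle (HF) cells were negative for both. Touch dome and IFE therefore share the SCA1 gate that HF lacks, and what differs with that gate cannot be told apart from what differs with the tissue compartment. Whether replicate libraries are from different mice is not stated, and SDs and p-values may reflect technical spread alone. Only called peaks were deposited, without heights, so depth is unknown, "open" below means that a peak was called, and a missing peak is not evidence of closed chromatin.

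Exchangers of both families move calcium out of the cytosol in return for sodium that flows in. The Slc8 proteins (NCX) exchange these ions alone, while the Slc24 proteins (NCKX) carry potassium out together with calcium. In epidermis, calcium outside the cell rises toward the surface and is a main signal for keratinocytes to stop dividing and differentiate.

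The sequences just before 4 annotated starts, at Slc24a3, Slc24a2 and Slc8a1, are shown first. They let a reader see how far a consensus region covers the bases before each start. Each run holds the 250 bases before a start, 5′ to 3′ on the gene's strand, from RefSeq (GRCm38.p6), and capitals mark bases inside a consensus region. The windows are chr2:145167525-145167774 (plus strand) for the first Slc24a3 start, chr2:145242361-145242610 (plus) for the second Slc24a3 start, chr4:87230541-87230790 (minus) for the outer Slc24a2 start, and chr17:81738388-81738637 (minus) for Slc8a1.
Slc24a3, first start: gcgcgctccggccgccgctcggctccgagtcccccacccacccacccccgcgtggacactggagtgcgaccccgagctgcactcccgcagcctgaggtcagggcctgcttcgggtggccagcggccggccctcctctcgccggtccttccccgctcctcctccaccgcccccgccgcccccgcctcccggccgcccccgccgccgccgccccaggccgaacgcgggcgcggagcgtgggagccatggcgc
Slc24a3, second start: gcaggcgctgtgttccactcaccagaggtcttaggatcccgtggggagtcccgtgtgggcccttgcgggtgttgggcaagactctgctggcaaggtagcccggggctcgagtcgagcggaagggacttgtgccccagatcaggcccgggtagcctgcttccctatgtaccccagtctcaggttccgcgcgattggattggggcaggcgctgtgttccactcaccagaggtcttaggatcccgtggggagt
Slc24a2, outer start: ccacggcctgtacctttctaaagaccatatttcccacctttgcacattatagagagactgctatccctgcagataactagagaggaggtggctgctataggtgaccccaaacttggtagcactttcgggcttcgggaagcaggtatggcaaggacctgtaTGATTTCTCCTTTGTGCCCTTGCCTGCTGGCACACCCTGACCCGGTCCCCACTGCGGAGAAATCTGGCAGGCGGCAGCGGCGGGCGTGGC
Slc8a1: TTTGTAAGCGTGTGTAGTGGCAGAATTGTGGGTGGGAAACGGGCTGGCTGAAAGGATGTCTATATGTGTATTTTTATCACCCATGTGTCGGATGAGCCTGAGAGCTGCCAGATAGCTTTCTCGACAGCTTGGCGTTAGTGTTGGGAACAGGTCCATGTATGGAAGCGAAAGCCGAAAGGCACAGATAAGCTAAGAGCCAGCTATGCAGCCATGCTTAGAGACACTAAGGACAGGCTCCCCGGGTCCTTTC

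No capitals fall in either Slc24a3 run. The nearest called region began 299 bp after the first start and 3655 bp after the second. In Slc24a2 the 90 bases nearest the start were inside a region that was open in every library except HF replicate 2. In Slc8a1 all 250 bases were inside a region, open in both IFE libraries and touch dome replicate 2.

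All 8 genes matched the RefSeq table, with 10 start windows of 300 bases (250 before and 50 after each start). The first Slc24a3 window was rich in G and C, at 80.7% with 43 CpG dinucleotides, where the median of 32851 annotated windows was 52.7% and 7. It held 4 matches to the GC box GGGCGG, a motif found in 35.7% of all windows, and the Slc8a2 window held 1. The second Slc24a3 window had 63.7% GC and no GC box. Both strands were searched. A TATA box (TATAAA, in 13.6% of all windows) was found at the inner Slc24a2 start, and an AP-1 site (TGANTCA, in 7.81%), which overlapped an E-box, at Slc24a5. CCAAT was found in 6 of the 10 windows (37.4% of all) and the E-box CANNTG in 5 (72.3% of all). These are matches of letters and not sites of binding.

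Slc24a3 encodes NCKX3, an exchanger found in many tissues including brain and smooth muscle. Its span, chr2:145167775-145642166 (mm10), covers 474.4 kb and had 36 consensus regions, 30 of them inside the span, 3 upstream and 3 downstream. Touch dome replicates 1 and 2 had a peak in 21 and 29 of them, IFE replicates in 32 and 28, and HF replicates in 8 and 12. The HF libraries were the 2 lowest and did not overlap with the others, while touch dome and IFE overlapped. In order, the group means were 10 ± 2.83 in HF, 25.0 ± 5.66 in touch dome and 30.0 ± 2.83 in IFE (SD, n = 2 each), and the last pair did not differ beyond the spread of touch dome. Of the 334 genes with at least 20 regions, 20.1% had both IFE counts above both HF counts and 15.9% had both touch dome counts above both HF counts. Slc24a3 had the lowest mean share of regions open in HF among these 334 genes, which is the kind of value it was chosen for.

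**Figure D1:**
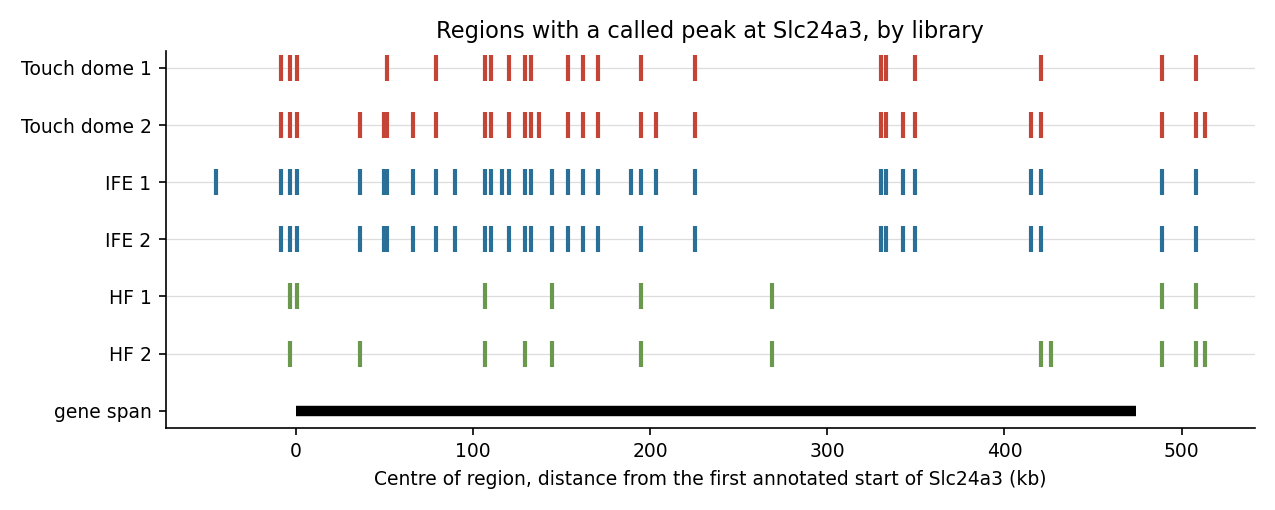
Regions with a called peak in each library (rows) at Slc24a3, by the distance of the region's centre from the first annotated start in kb; the black bar is the gene span. HF rows have 8 and 12 ticks, against 21 to 32 in the touch dome and IFE rows.

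The length of DNA under peaks at Slc24a3 sums the same peaks, so its like order is not separate support for the counts. It was 15583 and 25027 bp in touch dome, 25837 and 23857 bp in IFE, and 7960 and 9981 bp in HF. Means were 20305 ± 6678, 24847 ± 1400 and 8970 ± 1429 bp (SD, n = 2). The HF lists held 54844 and 57131 peaks in all, against 52219 and 51124 in IFE and 50153 and 59250 in touch dome. List length was varied for the region counts, with values in the last section, but its part in these lengths of DNA was not tested. Over all consensus regions, HF libraries had a peak in 71.6% and 74.3%, and IFE libraries in 68.2% and 66.3%.

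In the comparison of IFE with HF, Slc24a3 had 18 regions with a peak in both IFE and neither HF library and 1 with the reverse. That is 50.0% and 2.78% of its regions, where 10.2% and 14.7% of all consensus regions were of these kinds. Of the 18, touch dome replicate 1 had a peak in 13 and touch dome replicate 2 in 17. Against HF, touch dome had 13 regions and HF 2, or 36.1% and 5.56%, beside 8.40% and 7.97% of all regions. Touch dome and IFE shared the same HF libraries in these comparisons, so the 2 results are not independent. Touch dome against IFE gave 0 touch dome and 2 IFE regions, beside 5.41% and 1.80% of all regions. Without touch dome replicate 1, the library with the fewest peaks, the counts against HF became 19 and 2, and those against IFE 2 and 2. Against IFE they were 0 and 7 without touch dome replicate 2 and 0 and 5 without IFE replicate 2.

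**Figure D2:**
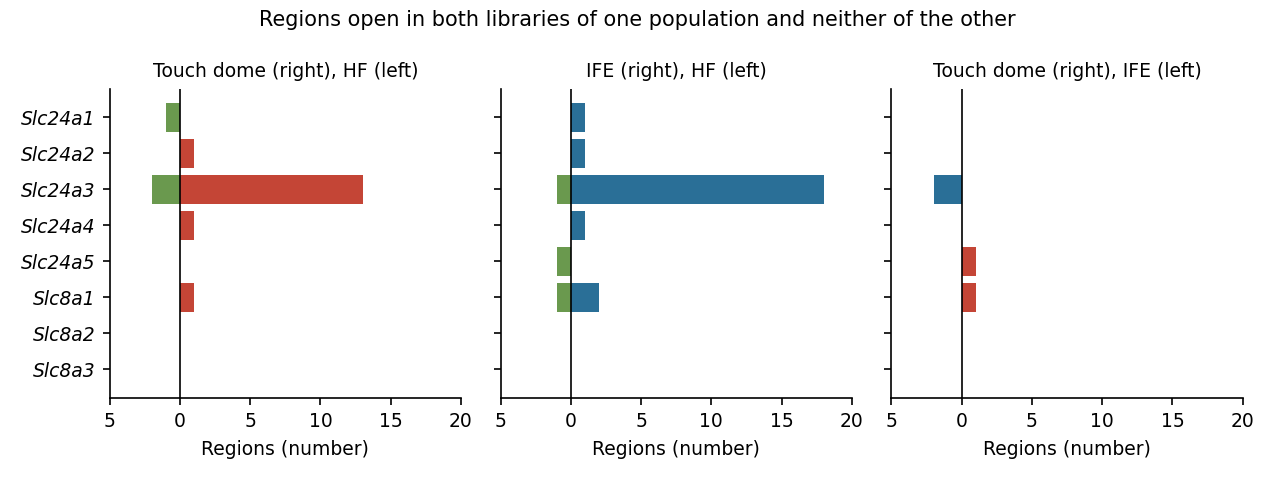
Number of regions per gene open in both libraries of one population and neither of the other, for touch dome (red) and HF (green), IFE (blue) and HF, and touch dome and IFE. Slc24a3 holds 13 of the touch dome and 18 of the IFE regions that HF lacks, and the other genes have at most 2 in any direction.

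The 13 touch dome regions were the same as those open in all 4 touch dome and IFE libraries and in no HF library, a state of 6.52% of all consensus regions. One lay upstream at chr2:145158813-145159771, 8004 bp before the span, with peaks of 809 and 848 bp in touch dome and 924 and 947 bp in IFE. The others were inside the gene span. From the start side they were chr2:145218846-145220019, chr2:145246266-145247154, chr2:145277724-145278351, chr2:145287104-145289214, chr2:145299731-145300843, chr2:145321059-145321952, chr2:145329514-145330471 and chr2:145338158-145339030. Toward the far end followed chr2:145392836-145393625, chr2:145498144-145498656, chr2:145500388-145501469 and chr2:145517259-145517874. The widest of them, centred 120.4 kb from the first start, had touch dome peaks of 405 and 1964 bp and IFE peaks of 1176 and 1069 bp, so the touch dome replicates differed more there than the populations. The region centred 132.5 kb from the start was even, with 897 and 1009 bp in touch dome and 1113 and 1039 bp in IFE. Peaks at these 13 regions had a lower median width than all peaks of the same library, in each touch dome and IFE library. Peaks at regions of the same state elsewhere were not compared. Their median width was 596 and 802 bp in touch dome and 863 and 737 bp in IFE, where all peaks of the same libraries had medians of 862, 912, 936 and 896 bp. When the wider 50% of each list's peaks alone was used, Slc24a3 had 14 regions in place of 36. Of these 14, the counts were 2 IFE and 0 HF regions in place of 18 and 1. Touch dome against HF gave 2 and 0 in place of 13 and 2. Both of the 2 IFE regions were among the 18, but 1 of the 2 touch dome regions was among the 13. The other began at chr2:145296668, where HF replicate 2 had a peak of 792 bp in the full lists. Over all regions that setting left 8.81% open in both IFE and no HF library, and 7.33% in both touch dome and no HF library.

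A further 5 regions were open in both IFE and no HF library but not in both touch dome libraries. In 4 of them touch dome replicate 2 had a peak and replicate 1 had none (chr2:145217553-145218079, chr2:145233625-145234579, chr2:145509749-145511524 and chr2:145582619-145583593). The region chr2:145257292-145257712 had peaks of 415 and 337 bp in IFE and none in touch dome. In all, 8 regions at Slc24a3 were open in replicate 2 of touch dome and not in its replicate 1, and none had the reverse. Replicate 2 also has the longest of the 6 peak lists.

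HF peaks at Slc24a3 were few but not confined to shared regions. The region chr2:145436457-145437072, centred 269.0 kb from the first start, had HF peaks of 616 and 540 bp and none in the other 4 libraries. It lies where the touch dome and IFE libraries had no peak between the regions centred at 225.5 and 330.6 kb. The region chr2:145311737-145312963 was open in HF (618 and 1189 bp) and IFE (294 and 924 bp) and had no touch dome peak. HF replicate 2 alone was open at chr2:145593806-145594108. HF replicate 2 had 5 regions that replicate 1 lacked, and replicate 1 had 1 that replicate 2 lacked. That 1 was chr2:145168074-145168840, the region just inside the first start, with a peak of 321 bp in HF replicate 1, 576 and 670 bp in touch dome, and 767 and 730 bp in IFE.

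The rest of the 36 regions were open in 1 library or in a mixture. IFE replicate 1 alone was open at chr2:145122183-145122674, chr2:145283874-145284238 and chr2:145356744-145357090, and touch dome replicate 2 alone at chr2:145304634-145305078. Regions with peaks in touch dome and IFE libraries and in HF replicate 2 were chr2:145203504-145203974, which lacked touch dome replicate 1, chr2:145296668-145297705 and chr2:145588068-145588681. Touch dome replicate 2 shared chr2:145370529-145371757 with IFE replicate 1 and chr2:145680921-145681375 with HF replicate 2.

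Along the gene, regions were densest toward the start. Of the 30 inside the span, 22 lay before its midpoint and 8 after it. The median gap between neighbouring regions was 7.6 kb, and the widest was 64.7 kb, from chr2:145517875 to 145582618. Of the 36 regions, 23 had no HF peak, 7 no touch dome peak and 4 no IFE peak. Those 23 fell into 7 runs of neighbouring regions without an HF peak. The largest runs held 5 regions each, over 40.2 kb (chr2:145217553-145257712) and over 85.5 kb (chr2:145498144-145583593), and another held 4 (chr2:145321059-145357090).

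At 5 regions, 13.9% of the 36, every library had a peak, against 45.2% of all consensus regions. They were chr2:145163304-145165191, chr2:145273797-145275170, chr2:145361623-145363885, chr2:145655581-145657270 and chr2:145675089-145676230. Width and presence come from the same peak calls, so these widths are not separate support for the counts above. The first lay 2584 bp upstream of the span. It measured 1693 and 1759 bp in touch dome, 1882 and 1886 bp in IFE, and 1357 and 1401 bp in HF. There IFE was highest, HF lowest and no population overlapped another. How often widths separate in this way at regions open in all 6 libraries was not counted. The second measured 1260 and 1286 bp in touch dome, 1374 and 1294 bp in IFE and 592 and 898 bp in HF, again lowest in HF. The third measured 1162 and 1484 bp in touch dome, 1321 and 1217 bp in IFE and 1768 and 1048 bp in HF. At the fourth, downstream of the gene, HF peaks of 1660 and 1489 bp exceeded the touch dome peaks of 646 and 920 bp and overlapped with the IFE peaks of 817 and 1536 bp. The fifth measured 1114 and 1023 bp in touch dome, 1099 and 1111 bp in IFE and 1028 and 989 bp in HF.

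**Figure D3:**
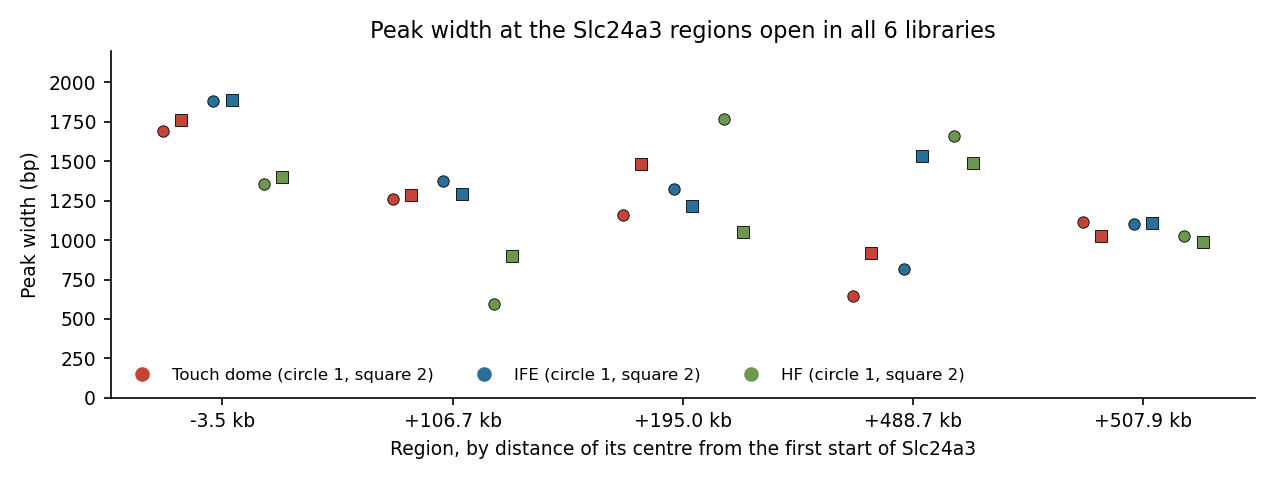
Peak width in bp (vertical axis) at the 5 Slc24a3 regions with a peak in all 6 libraries, ordered by distance from the first start; circles are replicate 1 and squares replicate 2. HF peaks are the narrowest at the 2 regions nearest the start and not at the region 488.7 kb away.

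Averaged over these 5 regions, peak width was 1175 and 1294 bp in touch dome, 1299 and 1409 bp in IFE, and 1281 and 1165 bp in HF. IFE exceeded HF by 131 bp (1354 ± 77.9 against 1223 ± 82.0, SD, n = 2, two-sided exact permutation p = 0.333). Touch dome differed from HF by 11.7 bp (1235 ± 84.4, exact permutation p = 0.667) and from IFE by -119 bp (exact permutation p = 0.333). With 2 libraries against 2 the smallest p possible is 0.333, so no difference could pass a threshold of 0.05, and the touch dome and HF difference turned to -48 bp without touch dome replicate 2 and to -46.3 bp without HF replicate 2.

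The genes beside Slc24a3 had similar counts in the 3 populations. The 3 spans on either side were Scp2d1, Dtd1 and Smim26 before it and Rin2, Naa20 and Crnkl1 after it, the nearest 343 and 130 kb away. Of their 22 regions, the touch dome libraries were open at 17 and 17, the IFE libraries at 16 and 15, and the HF libraries at 16 and 18. None was open in both IFE and no HF library, and 2 had the reverse. Rin2, which encodes a regulator of Rab GTPases, had 17 of these regions, with 12 and 12, 12 and 11, and 12 and 13 open in the same order. Over chromosome 2 as a whole, 581 of 5596 regions were open in both IFE and no HF library and 850 in both HF and no IFE library. The difference between Slc24a3 and its neighbours was not tested.

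Genes most like Slc24a3 were found by the share of a gene's regions open in each of the 6 libraries, as the mean absolute difference from the Slc24a3 shares over 333 other genes with at least 20 regions. The 5 nearest were Sox6 (6.82 percentage points), Dlg2 (7.83), Nrg1 (8.06), Ankrd55 (8.6) and Itga6 (9.9), where the median gene differed by 25 points. Sox6, which encodes a transcription factor, had 8 of its 22 regions open in both IFE and no HF library and none in reverse. Dlg2, a scaffold protein gene, had 16 and 3 of 44. Nrg1, the neuregulin ligand gene, had 8 and 3 of 20, and Ankrd55 had 6 and 0 of 21. Itga6, the gene of the α6-integrin used in the sort, had 7 and 1 of 23. Over all regions the shares were 10.2% and 14.7%. The genes were picked for open shares like those of Slc24a3, so more IFE than HF regions came with the choice. In HF replicates 1 and 2 the share open was 22.2% and 33.3% at Slc24a3 and 27.3% and 40.9% at Sox6. All values come from the same 6 libraries, so likeness over them is a description.

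**Figure D4:**
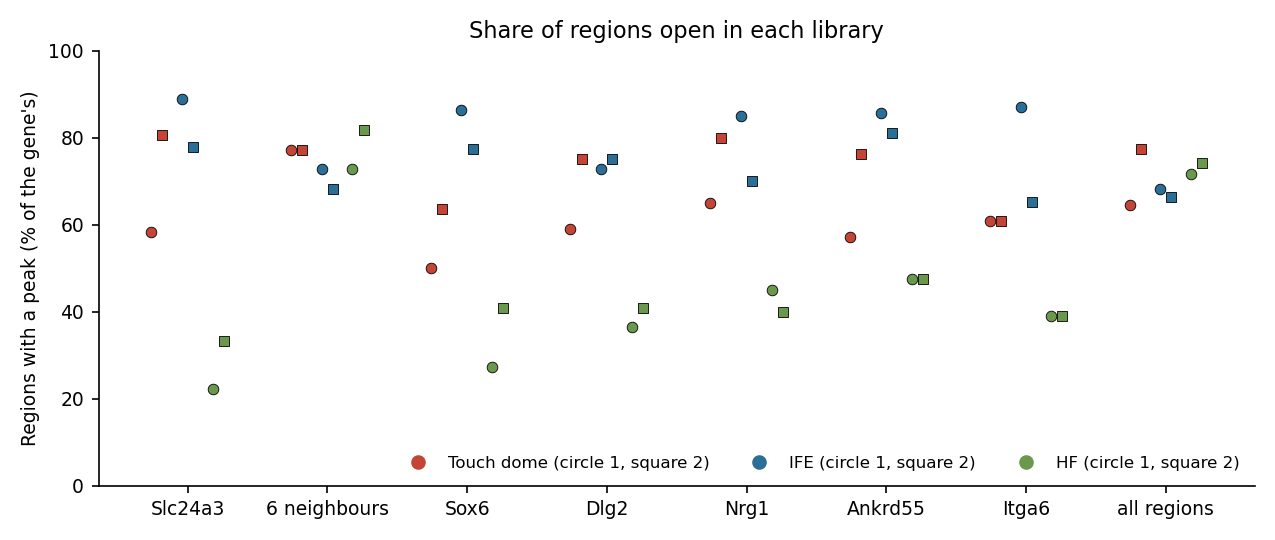
Share of consensus regions with a peak in each library, in percent, for Slc24a3, its 6 neighbouring genes as 1 set, the 5 genes of most similar pattern and all 75738 regions; circles are replicate 1 and squares replicate 2. HF shares are 22.2% and 33.3% at Slc24a3 and 71.6% and 74.3% over all regions.

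The other 7 exchanger genes had 21 regions between them. Touch dome replicates were open in 13 and 13, IFE replicates in 13 and 12, and HF replicates in 9 and 11. IFE against HF gave 5 and 2 regions (23.8% and 9.52% of the 21) and touch dome against HF 3 and 1 (14.3% and 4.76%). Touch dome against IFE gave 2 and 0 (9.52% and 0.00%). Over all regions the same shares were 10.2% and 14.7%, 8.40% and 7.97%, and 5.41% and 1.80%. Without HF replicate 1 the counts were 6 and 5 for IFE against HF and 4 and 4 for touch dome against HF, so these small counts rest on single regions and on that library.

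Slc24a2 (NCKX2, an exchanger of neurons and cone photoreceptors; chr4:86983124-87230652) had 5 regions, of which touch dome replicates were open in 5 and 4, IFE replicates in 4 and 4, and HF replicates in 2 and 2. Only 1 of the 5 regions was open in all touch dome and IFE libraries and in no HF library. That state held for 6.52% of all consensus regions. Counts this small were not compared with those of other genes. Downstream of the gene, chr4:86957470-86958599 was open in touch dome (613 and 453 bp) and IFE (1130 and 580 bp) and not in HF. Inside it, chr4:87109348-87110337 was open in all but HF replicate 1 (487 bp in HF replicate 2, 834 to 932 bp in the others). At its outer start, chr4:87229776-87230630 was open in all but HF replicate 2, with 489 bp in HF replicate 1 and 434 to 855 bp in the others. The remaining regions were chr4:87279170-87280007, open in all 6 libraries, and chr4:87078450-87078950, open in touch dome replicate 1 alone. The first of these lay 48.5 kb from the span, just inside the 50 kb window.

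Slc24a4 (NCKX4, needed for enamel formation and for recovery of olfactory neurons; chr12:102128727-102267133) had 5 regions, of which each touch dome and IFE library was open at 2 and the HF replicates at 1 and 4, on either side of the rest. The region chr12:102261876-102263141 was open in touch dome (886 and 1147 bp) and IFE (954 and 1132 bp) and not in HF. The region chr12:102202162-102203629 was open everywhere. HF replicate 2 alone had the other 3, chr12:102153485-102154069, chr12:102271615-102271993 and chr12:102128730-102129131. The last begins 3 bp past the annotated start and had a peak of 402 bp.

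Slc24a1 (NCKX1, the exchanger of rod photoreceptors; chr9:64922861-64951620) had 2 regions, both inside its span. One, chr9:64926438-64926981, was open in touch dome replicate 1 (356 bp) and both IFE replicates (457 and 544 bp). The other, chr9:64934035-64934750, was open in IFE replicate 2 (463 bp) and both HF replicates (460 and 716 bp). The number open was 1 and 0 in touch dome, 1 and 2 in IFE and 1 and 1 in HF, with overlap between all groups.

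Slc24a5 (NCKX5, an exchanger of pigment cell organelles that sets pigmentation; chr2:125068127-125088677) had no peak in its span. Its single region, chr2:125031093-125033662, lay 34.5 kb upstream and was open in touch dome (1224 and 1765 bp) and HF (2513 and 2549 bp) and in neither IFE library. Both HF peaks were wider than both touch dome peaks. This state of presence held for 3045 of the 75738 consensus regions, and how often widths separate within it was not counted. Melanocyte marker genes, taken as a list, also had their lowest counts in IFE. Of their 37 regions, 27 and 33 were open in touch dome, 21 and 21 in IFE and 29 and 30 in HF. Mitf alone had 20 of these regions, and without it IFE and HF overlapped, with 13 and 16 of 17 open in touch dome, 11 and 10 in IFE and 11 and 12 in HF. Of that list of 10 genes, 8 had regions, and Tyr and Kit had none in any library. Of the 8, 3 had more regions open in both HF and no IFE library than the reverse. Sox10 alone went the other way. Over all consensus regions IFE libraries were also below HF libraries, at 68.2% and 66.3% against 71.6% and 74.3%. The part of melanocytes in the Slc24a5 region was not tested, and a peak list cannot tell more cells of a type from more open chromatin per cell.

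Slc8a1 (NCX1, the exchanger of heart muscle, also present in many other cells; chr17:81373105-81738387) had 8 regions, of which touch dome replicates were open at 4 and 6, IFE replicates at 6 and 4 and HF replicates at 4 and 3, with overlap between all groups. Its annotated start was covered by chr17:81738336-81738993, with peaks of 540 bp in touch dome replicate 2 and 525 and 593 bp in IFE, and none in touch dome replicate 1 or HF. Inside the gene, chr17:81486415-81487272 was open in touch dome (682 and 801 bp) and IFE (696 and 491 bp) and not in HF. In the same stretch of the gene, chr17:81480006-81480788 was open in touch dome (515 and 581 bp) and HF (624 and 385 bp) and not in IFE. The regions chr17:81402433-81403428 and chr17:81468689-81469688 were open everywhere. The last 3 were chr17:81669511-81670474 (touch dome replicate 2 and IFE replicate 1), chr17:81481994-81482310 (HF replicate 1) and chr17:81743003-81743295 (IFE replicate 1). Heart and skeletal muscle markers had 7 regions, 4 or 5 of them open in every library, and Myh6, Ttn and Acta1 had none.

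Slc8a2 (NCX2, chr7:16127592-16161063) and Slc8a3 (NCX3, chr12:81197915-81333732), both known from brain and the latter from skeletal muscle too, were given no region. No library had a called peak inside either span. The 5 regions within 50 kb of Slc8a2 were nearer to other genes, such as Kptn and Meis3, and so were the 3 within 50 kb of Slc8a3, which belonged to Smoc1. The nearest of them to the Slc8a2 start was 9.2 kb away and open in all 6 libraries.

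**Figure D5:**
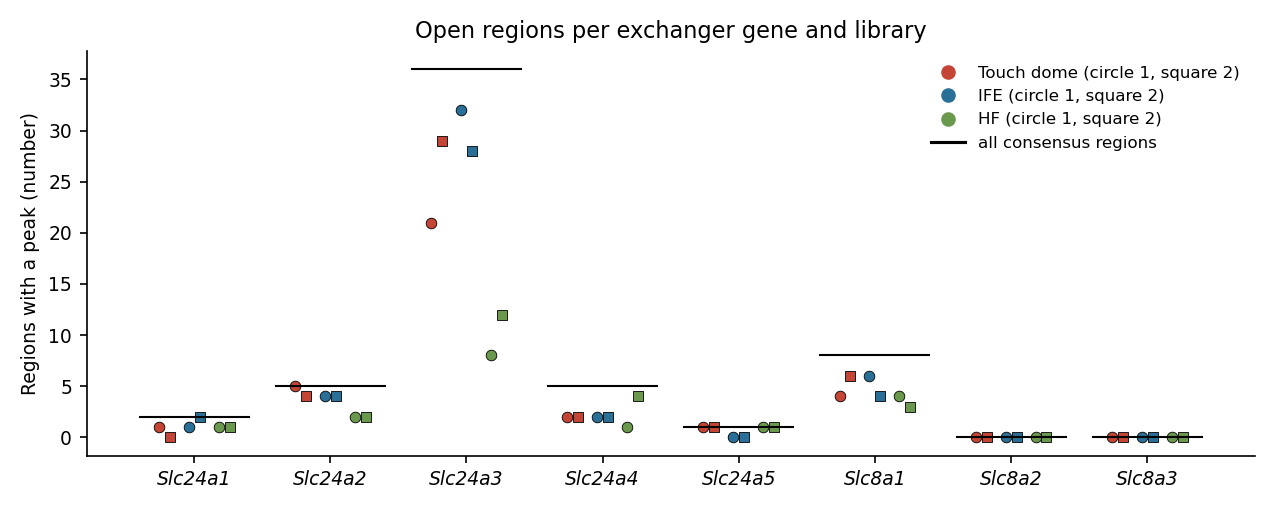
Number of regions with a peak (points) per exchanger gene and library, with black lines at the number of consensus regions of the gene; circles are replicate 1 and squares replicate 2. At Slc24a3 the HF points (8 and 12) lie under all others (21 to 32), and Slc8a2 and Slc8a3 have no region.

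The list of 37 other calcium handling genes (pumps, channels and mitochondrial transporters) had 263 regions at 35 genes. IFE against HF gave 30 and 32 regions, or 11.4% and 12.2%, near the 10.2% and 14.7% of all regions, with more IFE regions at 12 genes and more HF regions at 9. Touch dome against HF gave 27 and 25, or 10.3% and 9.51%, near the 8.40% and 7.97% of all regions. Nothing is read from these counts about the list. In IFE against HF, 43 regions of pumps gave 6 and 2, 31 of mitochondrial transporters 5 and 0, 73 of release channels 6 and 7, 46 of store-operated entry genes 8 and 4, and 70 of calcium sensing and entry genes 5 and 19. The largest net numbers at single genes were at Cacna1e, a voltage-gated calcium channel gene (0 IFE and 7 HF of 9 regions), and Cacna1c, another channel gene (1 and 5 of 28). Stim2, a sensor of stored calcium, had 5 and 1 of 16. Counts at these single genes were not tested against the 10.2% and 14.7% of all regions.

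The populations were checked by marker genes. Ly6a, which encodes SCA1, had 4 and 4 regions open in touch dome, 5 and 5 in IFE and 2 and 2 in HF, and Tnc had 17 and 17, 11 and 11, and 13 and 12. Epcam had 6 or 7 open regions in every library. Basal keratinocyte genes had 40 to 47 of 58 regions open in each library. Merkel cell genes had 6 and 10 of 16 open in touch dome, 10 and 7 in IFE and 11 and 13 in HF, and so did not follow Slc24a3. Piezo2 alone had 9 of these regions, with 3 and 5 open in touch dome, 3 and 3 in IFE and 7 and 9 in HF. Both of the next lists had their lowest counts in HF, and how often a list of genes does so was not counted. Langerhans and T cell genes had 4 and 5 of 6 regions open in touch dome, 5 and 4 in IFE and 3 and 2 in HF, with none at Cd207, Cd3g or Itgax. H2-Ab1 held 4 of these regions, and there the populations overlapped, with 2 and 3, 4 and 3, and 3 and 2 open in the same order. Neuron genes had 33 and 37 of 46 open in touch dome, 36 and 31 in IFE and 27 and 26 in HF, with regions at all 5 genes. The part of either cell type in the Slc24a3 result was not tested.

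The 50 kb limit fell between the following regions. Just inside it at Slc24a3 were the regions 38.8 kb (touch dome replicate 2 and HF replicate 2) and 45.1 kb (IFE replicate 1) from the span, and just outside it were regions at 57.6 kb (IFE replicate 1) and 60.8 kb (all 6 libraries). Beyond the window of Slc8a1, a region at 50.1 kb was open in all 6 libraries and one at 58.6 kb in both HF libraries alone. Beyond that of Slc24a5, a region at 54.4 kb was open in touch dome replicate 2 and both HF libraries.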

How the data were processed

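Each of the 6 libraries had its own peak list. Per the submitters' processing notes, the tools named were MACS2 2.2.7.1, SAMtools 1.9, Bowtie2 2.4.5 and Trim Galore 0.6.7, with genome build mm10, and no settings or thresholds are recorded there. The deposited lists hold chromosome, start, end and name in 4 columns, with no score. Because peaks were called per library, a longer list can come from deeper sequencing. Coordinates are counted from 1.

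Peaks overlapping by at least 1 bp were merged, and regions were given to the nearest of 21900 protein-coding spans (RefSeq, GRCm38.p6, the assembly of mm10) within 50 kb. A tie would have gone to the span with more overlap. Exons and introns were not used here, nor was peak sequence. Genes and lists were chosen with earlier results of these data known. Named genes were the members, the 5 most similar genes, 3 neighbours on each side, and up to 4 calcium handling genes with the largest net number of regions (a tie of 4 genes with a net of 3 was not named). Marker genes were named as checks after their values were seen. Width was compared by exact permutation of libraries. Alternatives varied peak cover, merging, peak width, list length, window and libraries. The region builder was tested on simulated lists, with 0 errors in 801 regions and 4806 library states. Python 3.11.15, NumPy 2.4.6 and SciPy 1.17.1 were used.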

Additional observations from a re-analysis of the deposited data

How the results depend on the processing

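The net number of Slc24a3 regions, one population minus the other, was 11 for touch dome against HF, 17 for IFE against HF and -2 for touch dome against IFE, and 2, 3 and 2 for the other 7 genes. Of the 30 alternatives for Slc24a3, 22 stayed within 1.5 times and none changed sign; of the 30 for the other 7 genes, 13 did and none changed sign. With the wider 50% of peaks the Slc24a3 values were 2, 2 and 0 and those of the other genes 1, 0 and 1, with 14 regions at Slc24a3 in place of 36 and 22 in all in place of 57. That setting keeps fewer peaks by construction. With every list cut to equal numbers of its widest peaks, the Slc24a3 values were 11, 18 and -2, with 33 regions at the gene. When a peak had to cover 50% of its region, Slc24a3 had -1 for touch dome against IFE, and the other genes had 5 for IFE against HF and 1 for touch dome against IFE. For the other genes, touch dome against HF was 1 with equal numbers of the widest peaks, 1 within 10 kb and 1 within 100 kb, IFE against HF was 1 within 100 kb, and touch dome against IFE was 1 within 10 kb. The cause was not tested in these cases. Without 1 library at a time, Slc24a3 ranged from 11 to 17 for touch dome against HF, from 16 to 21 for IFE against HF and from -7 to 0 for touch dome against IFE, and the other genes from 0 to 4, 1 to 4 and 1 to 2. The width difference of touch dome and HF ranged from -48 to 71.4 bp. A stricter peak score could not be used because the lists have none, and width stood in for it.

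Libraries share replicate numbers across populations, and the numbers were not taken to pair them. The correlation of deviations from group means was 0.004 to 0.059. With 2 libraries in a group, both replicate numbers give the same values, so these cannot show whether the numbers mark pairs. With a replicate block the width differences were 11.7 bp (exact permutation p = 1), 131 bp (p = 0.5) and -119 bp (p = 0.5), where 0.5 is the smallest p that 2 pairs allow. The region counts come from no test. Unknown depth limits every statement about a missing peak.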
